A study of Oryctolagus cuniculus with 24 samples.

Results

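RNA of caecal lamina propria mononuclear cells (LPMC) was compared between rabbits given dextran sulphate sodium alone (Veh DSS) and untreated controls (Veh Water). The libraries were taken by their treatment and colitis labels and by no measured value, which gave 3 Veh DSS and 3 Veh Water libraries, 6 of the 24 libraries of the study, each from a separate rabbit. All were New Zealand white rabbits of 8 to 10 weeks that drank fennel tea, were sedated and received the vehicle of the parasite ova, a phosphoric acid buffer, by gastric tube on days 1, 14 and 21. Veh DSS rabbits then had 0.1% DSS in the tea for 5 days from day 26, Veh Water rabbits drank the tea without it, and tissue of both groups was taken on day 35. For comparison, intestinal epithelial cells (IEC) of the same 6 rabbits were used, together with LPMC and IEC of 6 rabbits that had received 3 doses of 2500 Trichuris suis ova (TSO) in place of the vehicle, 3 with DSS (TSO DSS) and 3 without (TSO Water). LPMC were obtained by digesting the caecal wall, muscle layer included, after the epithelium had been detached, and were enriched on a density gradient without any sorting. All 3 Veh DSS rabbits and Veh Water rabbits 2 and 3 were housed in room A, and Veh Water rabbit 1 in room B. The sex of the rabbits is given neither in the labels nor in the methods.

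LPMC are the white blood cells of the connective tissue under the gut epithelium, among them macrophages, dendritic cells, T cells, B cells and plasma cells. DSS injures the epithelium, bacteria of the lumen then reach the lamina propria, and the resident and newly recruited leukocytes there typically make cytokines, chemokines and enzymes that degrade matrix. In bulk RNA of such cells, fewer cells of a type and less RNA per cell cannot be told apart. The tables list genes by Ensembl identifier and chromosome of the build OryCun2.0 without symbols, and a table of 38822 named rabbit genes matched 0 of the 17318 identifiers, so that genes are given here by identifier and without their functions, and the leukocyte content of the libraries was not checked by named markers.

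The 3 Veh DSS libraries held 9275645, 15770415 and 14437893 reads, and the 3 Veh Water libraries held 14042904, 11229251 and 11157778 reads. These reads were recovered from the deposited normalized values, which are whole multiples of the value of 1 read. Mitochondrial genes took 16.6, 22.9 and 16.6% of the reads in Veh DSS and 13.5, 23.6 and 25.0% in Veh Water, so that the groups overlapped (two-sided exact permutation test, p = 0.8; the smallest p that 3 against 3 rabbits allow is 0.1). Over genes, Pearson's correlation of log2 values was 0.931 to 0.956 among Veh DSS libraries, 0.941 to 0.956 among Veh Water libraries and 0.905 to 0.950 between the groups. On the first principal component, with 38.0% of the variance, the Veh Water libraries lay between 28.1 and 40.1, Veh DSS 1 at 7.49, Veh DSS 3 at -33.6 and Veh DSS 2 at -73.9. Veh DSS 2 thus lay farthest from the controls and Veh DSS 1 nearest to them.

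In LPMC, 14 of 11218 genes were differentially expressed in Veh DSS in comparison to Veh Water, 7 higher and 7 lower. A gene was called below 0.05 after Benjamini-Hochberg adjustment if its log2 fold change also exceeded 1 in either direction. The test was limma on log2 of the deposited value plus 1. Fold changes of Veh DSS over Veh Water in LPMC and in IEC are given on this scale. The 14 genes were 0.125% of the genes tested, 0.0624% in each direction. With the p-value left unadjusted, 607 genes passed at the same fold change (5.41%), of which 243 were higher (2.17%) and 364 lower (3.24%), and 1288 genes had an unadjusted p below 0.05 at any fold change. Veh DSS and Veh Water values were fully separated in 18.1% of all genes tested, with Veh DSS above Veh Water in 10.5% and below it in 7.61%. The median log2 fold change over all genes was 0.02. The adjusted p-values of the 14 genes lay between 0.00768 and 0.0425. The first gene past the threshold, ENSOCUG00000006632 on chromosome 7, had an adjusted p of 0.0504 with limma.

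The 14 calls depended on single rabbits. Without Veh DSS 1, 29 genes were called higher and 5 lower, whereas without Veh DSS 2 there was 1 in each direction and without Veh DSS 3 there were 0 in both. Without Veh Water 1, which also left room A rabbits only, 6 were higher and 10 lower, with 7 of the 14 genes among these 16. Without Veh Water 2 there were 0 calls, with 223 higher and 229 lower at the unadjusted p, and without Veh Water 3 there was 1 higher and 0 lower. On recovered reads, the quasi-likelihood test of edgeR found 3 genes, all among the 14, the edgeR likelihood ratio test called 256 and DESeq2 called 234, and both of these included all 14. With limma, 0 genes were called with all 12 LPMC libraries in the fit and 0 with the replicate number as a block (585 and 576 at the unadjusted threshold), 1 was called without a filter on low genes and 2 with reads thinned to the smallest library. Each gene was called in 3 to 13 of the 18 or 19 other fits that included it, with ENSOCUG00000026055 and ENSOCUG00000029014 in 3 of 18 and ENSOCUG00000009034 and ENSOCUG00000021800 in 4 of 19.

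**Figure D1:**
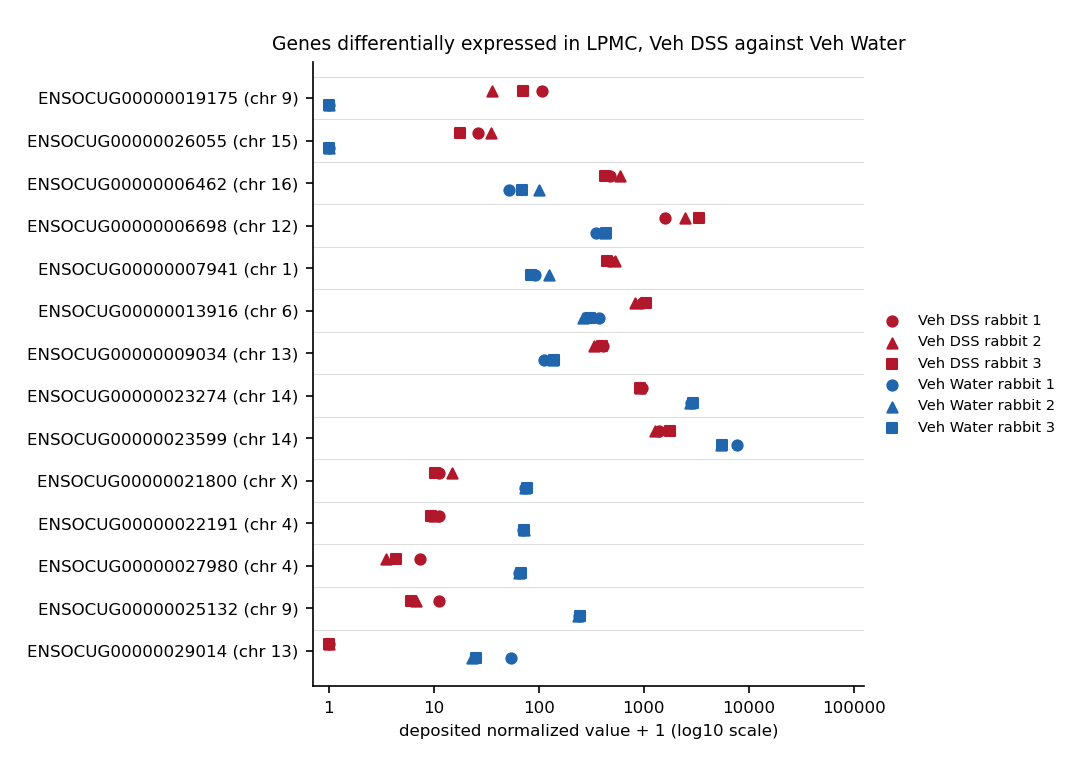
Each row is 1 of the 14 genes differentially expressed in LPMC, with its chromosome, and each point is 1 library, red for Veh DSS and blue for Veh Water, with a marker shape for each rabbit. The horizontal axis is the deposited normalized value plus 1 on a log10 scale. The 3 red points lie to the right of the 3 blue ones in the upper 7 rows and to the left in the lower 7, without overlap.

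Among the genes that rose, ENSOCUG00000006698 on chromosome 12 was the most abundant. Its normalized values were 1591, 2465 and 3390 in Veh DSS and 349, 426 and 437 in Veh Water. All 3 Veh DSS rabbits lay above every control, and Veh DSS 1 was the lowest of the 3. The log2 fold change was 2.56 ± 0.28 (SE, n = 3 against 3; limma adjusted p = 0.0425).

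ENSOCUG00000006462 on chromosome 16 and ENSOCUG00000007941 on chromosome 1 rose to a similar level in each of the Veh DSS rabbits. ENSOCUG00000006462 had values of 477, 597 and 426 in Veh DSS and of 51.3, 98.5 and 68.5 in Veh Water, a log2 fold change of 2.80 ± 0.27 (SE, limma adjusted p = 0.0403). ENSOCUG00000007941 had values of 471, 538 and 443 in Veh DSS and of 90.6, 124 and 83.2 in Veh Water, a log2 fold change of 2.29 ± 0.19 (SE, limma adjusted p = 0.0367). For both genes, Veh DSS 2 was the highest of the DSS rabbits and Veh Water 2 the highest of the controls. ENSOCUG00000007941 was also called by the quasi-likelihood test.

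The other 2 genes that were expressed in both groups rose about 3-fold. ENSOCUG00000013916 on chromosome 6 had values of 961, 832 and 1059 in Veh DSS and of 376, 266 and 307 in Veh Water, with a log2 fold change of 1.59 ± 0.17 (SE, limma adjusted p = 0.0425). ENSOCUG00000009034 on chromosome 13 had values of 412, 336 and 398 in Veh DSS and of 112, 137 and 138 in Veh Water, with a log2 fold change of 1.56 ± 0.16 (SE, limma adjusted p = 0.0403). Veh DSS 2, the library farthest from the controls over all genes, had the lowest value of its group in both.

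The remaining pair of higher genes was at 0 reads in every Veh Water library. ENSOCUG00000019175 on chromosome 9 had 84, 42 and 82 reads in Veh DSS (limma adjusted p = 0.0367). ENSOCUG00000026055 on chromosome 15 had 20, 41 and 20 reads in Veh DSS (limma adjusted p = 0.0403). No fold is given for this pair, because their reads came at 0 or in groups of about equal steps across all 24 libraries: ENSOCUG00000019175 was at 0 in 9 libraries, at 20 to 22 reads in 4, at 39 to 45 in 6 and at 80 to 123 in 5. The 3 Veh Water rabbits without a read of ENSOCUG00000019175 in LPMC had 44, 80 and 39 reads of it in IEC.

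Among the genes that fell, ENSOCUG00000025132 on chromosome 9 had the largest fold change of the genes still detected in Veh DSS. Its values were 10.1, 5.75 and 5.06 in Veh DSS, from 8, 7 and 6 reads, and 241, 233 and 245 in Veh Water, from 282, 213 and 200 reads. Each DSS rabbit was thus far under every control, and the spread within both groups was narrow. The log2 fold change was -4.97 ± 0.30 (SE, n = 3 against 3; limma adjusted p = 0.00768).

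ENSOCUG00000027980 and ENSOCUG00000022191, both on chromosome 4, and ENSOCUG00000021800 on the X chromosome fell in a like manner from a lower level. ENSOCUG00000027980 had values of 6.31, 2.46 and 3.37 in Veh DSS and of 64.1, 63.5 and 67.3 in Veh Water, a log2 fold change of -3.78 ± 0.38 (SE, limma adjusted p = 0.0403). ENSOCUG00000022191 had values of 10.1, 9.04 and 8.43 in Veh DSS and of 69.2, 71.1 and 71.0 in Veh Water, a log2 fold change of -2.81 ± 0.25 (SE, limma adjusted p = 0.0397). The Veh Water values of both genes lay within a few units of each other. ENSOCUG00000021800 had values of 10.1, 14.0 and 9.27 in Veh DSS and of 73.5, 72.2 and 75.8 in Veh Water, a log2 fold change of -2.65 ± 0.27 (SE, limma adjusted p = 0.0403).

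A pair of abundant genes on chromosome 14 also fell. ENSOCUG00000023599 had values of 1407, 1294 and 1777 in Veh DSS and of 7737, 5456 and 5539 in Veh Water, a log2 fold change of -2.06 ± 0.19 (SE, limma adjusted p = 0.0397). ENSOCUG00000023274 had values of 961, 920 and 929 in Veh DSS and of 2848, 2762 and 2949 in Veh Water, a log2 fold change of -1.61 ± 0.095 (SE, limma adjusted p = 0.00768). ENSOCUG00000023274 showed the smallest standard error of the 14 genes. It and ENSOCUG00000025132 were each called in 13 of 19 other fits, the most of the 14 genes. The seventh gene, ENSOCUG00000029014 on chromosome 13, was at 0 reads in Veh DSS and at 63, 20 and 20 reads in Veh Water (limma adjusted p = 0.0403). Its reads came in steps like those of ENSOCUG00000019175, and no fold is given.

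In total, 156 of the 11218 genes tested were at 0 in at least 1 of the 24 libraries and never between 1 and 9 reads in any, a rule that was chosen after the values were seen. They included 3 of the 14 called genes, 7 of the 243 higher genes and 10 of the 364 lower genes. With them left out of the fit, 5 genes were called higher and 6 lower, all among the 14.

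**Figure D2:**
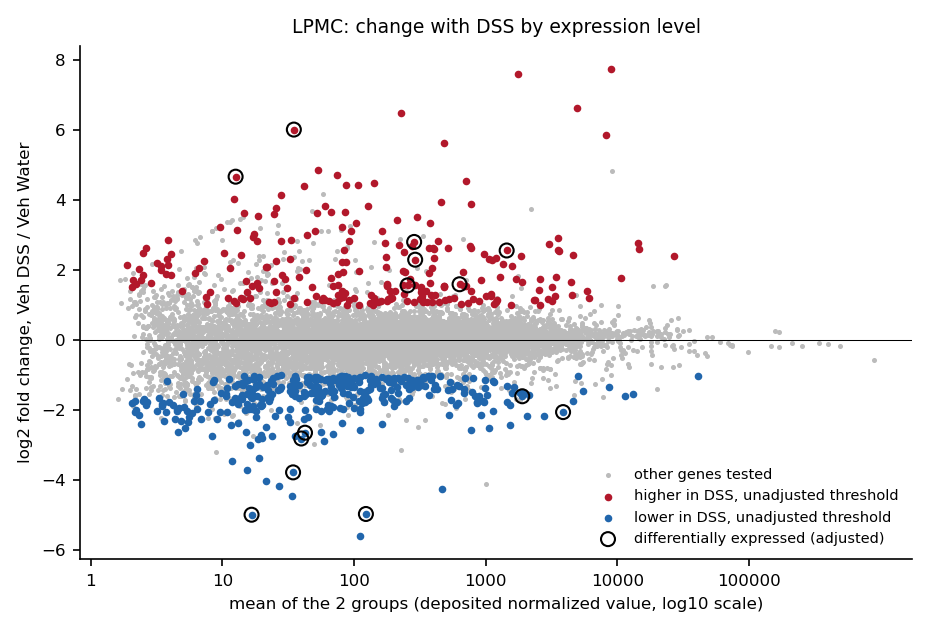
Each point is 1 of the 11218 genes tested in LPMC, at its mean deposited normalized value (horizontal, log10 scale) and its log2 fold change of Veh DSS over Veh Water (vertical). Red and blue points are the 243 higher and 364 lower genes at the unadjusted threshold, and black circles are the 14 differentially expressed genes, most of which lie at middle levels.

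The genes of the unadjusted threshold differed in level by direction. Among genes with a mean value from 10 to 100, 82 of 2668 were higher (3.07%) and 187 lower (7.01%), whereas among those from 1000 to 10000, 39 of 1670 were higher (2.34%) and 22 lower (1.32%). The median absolute log2 fold change of all genes fell from 0.40 to 0.17 between these levels, and the median standard error fell from 0.41 to 0.16. The median log2 fold change was 1.74 for the 243 higher genes and -1.52 for the 364 lower genes. A log2 fold change beyond 3 was reached by 39 of the 243 and by 12 of the 364. Values of DSS and control rabbits were fully separated for 214 of the 243 and 316 of the 364, beside 10.5% and 7.61% of all genes tested. Because these genes were chosen by p and fold change in the same libraries, the excess follows from the choice and is not a separate result. The low group was at or under 3 reads in every library for 32 of the 243 and 34 of the 364, and the fold changes of these genes are no bounds. By chromosome, the share of lower genes ran from 0 of 162 genes on chromosome 20 to 4.63% on the X chromosome among the nuclear chromosomes, and that of higher genes from 0.617% on chromosome 20 to 3.17% on chromosomes 6 and 13.

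The 3 DSS rabbits contributed unequally to these 607 genes. Relative to the Veh Water mean, the median log2 difference of the 243 higher genes was 1.23 in Veh DSS 1, 1.82 in Veh DSS 2 and 2.04 in Veh DSS 3. Veh DSS 1 held the lowest value of the 3 for 154 of the 243 genes. For the 364 lower genes the medians were -1.16, -2.07 and -1.20, and Veh DSS 2 held the lowest value for 267 of them. Without Veh DSS 2, 225 genes were higher and 194 lower, so that the larger number of lower genes did not hold, nor did it with room A rabbits only (275 higher and 265 lower).

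Several of the largest differences in LPMC were not called by the main limma test. ENSOCUG00000022646, ENSOCUG00000008632 and ENSOCUG00000009566, all on chromosome 13, were low in Veh Water and among the abundant genes in Veh DSS 2. ENSOCUG00000022646 had 728, 44306 and 19079 reads in Veh DSS and 48, 33 and 28 reads in Veh Water, a log2 fold change of 7.74 ± 1.26 (SE, limma adjusted p = 0.147). ENSOCUG00000008632 had 90, 31188 and 4320 reads in Veh DSS and 32, 16 and 17 reads in Veh Water, a log2 fold change of 6.61 ± 1.79 (SE, limma adjusted p = 0.343).

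ENSOCUG00000009566 had 468, 47226 and 10855 reads in Veh DSS and 98, 77 and 125 reads in Veh Water, a log2 fold change of 5.84 ± 1.40 (SE, limma adjusted p = 0.307). The order of the DSS rabbits was the same for the 3 genes, with rabbit 2 highest and rabbit 1 lowest. Every DSS rabbit lay above every control, which the choice of the genes required. In IEC of the same rabbits the order was again 2, 3, 1, with 144111, 29411 and 1659 reads of ENSOCUG00000022646 against 457, 101 and 19 in Veh Water. Without Veh DSS 1, all 3 genes were called in LPMC. With all libraries, the edgeR likelihood ratio test and DESeq2 also called all 3, and the edgeR quasi-likelihood test called none of them. ENSOCUG00000026515 on chromosome 15 had 41, 410 and 1119 reads in Veh DSS and 27, 0 and 0 in Veh Water, a log2 fold change of 6.47 ± 1.55 (SE, limma adjusted p = 0.304), here with rabbit 3 highest. With 2 control libraries at 0, this fold change ran from 5.53 to 8.70 over the other fits.

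**Figure D3:**
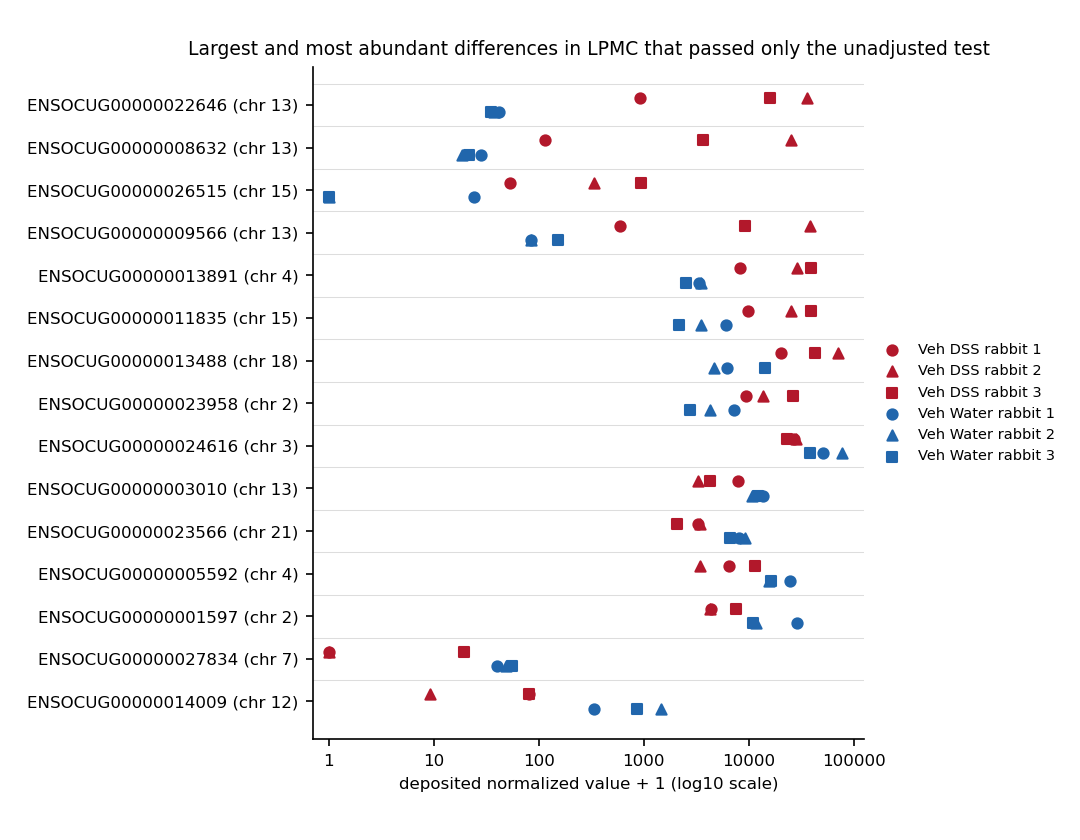
Each row is 1 gene that had 1 of the largest fold changes or highest levels among those past the unadjusted threshold only, and each point is 1 LPMC library, red for Veh DSS and blue for Veh Water. The horizontal axis is the deposited normalized value plus 1 on a log10 scale. The groups do not overlap in any row, which the choice of the genes required. The 3 Veh DSS values of ENSOCUG00000022646, ENSOCUG00000008632 and ENSOCUG00000009566 spread over more than 1 decade.

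Among the most abundant genes past the unadjusted threshold, ENSOCUG00000013488 on chromosome 18 had values of 20280, 71760 and 43050 in Veh DSS and of 6268, 4720 and 14210 in Veh Water, a log2 fold change of 2.41 ± 0.57 (SE, limma adjusted p = 0.296). ENSOCUG00000013891 on chromosome 4 had values of 8345, 28760 and 39040 in Veh DSS and of 3339, 3509 and 2547 in Veh Water, a log2 fold change of 2.76 ± 0.55 (SE, limma adjusted p = 0.22). In both genes Veh DSS 1 was the closest to the controls. ENSOCUG00000011835 on chromosome 15 and ENSOCUG00000023958 on chromosome 2 showed the same order of DSS rabbits as ENSOCUG00000013891, with log2 fold changes of 2.59 ± 0.58 and 1.77 ± 0.47 (SE, limma adjusted p = 0.277 and 0.343).

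Of the abundant lower genes, ENSOCUG00000024616 on chromosome 3 had values of 26940, 28420 and 23350 in Veh DSS and of 50730, 77010 and 38460 in Veh Water, a log2 fold change of -1.02 ± 0.29 (SE, limma adjusted p = 0.343). ENSOCUG00000023566 on chromosome 21 had values of 3275, 3447 and 2094 in Veh DSS and of 8128, 9241 and 6668 in Veh Water, a log2 fold change of -1.47 ± 0.23 (SE, limma adjusted p = 0.134). For both genes every DSS rabbit lay below every control, as the choice of the genes required. ENSOCUG00000001597 on chromosome 2, ENSOCUG00000005592 on chromosome 4 and ENSOCUG00000003010 on chromosome 13 had log2 fold changes of -1.58 ± 0.43, -1.54 ± 0.44 and -1.33 ± 0.32 (SE, limma adjusted p = 0.343, 0.346 and 0.304). ENSOCUG00000014009 on chromosome 12, with 63, 10 and 94 reads in Veh DSS and 392, 1326 and 702 in Veh Water, had a log2 fold change of -4.26 ± 0.96 (SE, limma adjusted p = 0.274). ENSOCUG00000027834 on chromosome 7, whose reads came in steps, had 0, 0 and 22 reads in Veh DSS and 46, 44 and 45 in Veh Water (limma adjusted p = 0.343), and no fold is given.

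TSO rabbits with and without DSS share no library with the Veh rabbits, so that the same genes could be examined in LPMC of other animals, which had however also received the ova. Unlike the Veh comparison, the TSO comparison was fitted on recovered reads scaled by TMM, over genes with at least 10 reads in at least 3 libraries. Of 10132 genes tested in TSO DSS against TSO Water, 19 were called higher (0.188%) and 413 lower (4.08%), and 1.5% and 10.2% passed at the unadjusted threshold. These calls also depended on single rabbits, with 0 to 166 higher and 22 to 951 lower when each TSO rabbit was left out in turn. Of the 364 genes lower in Veh DSS, 298 were tested in the TSO rabbits, 294 of them had a negative log2 fold change there, beside 48.7% of all genes tested, 248 passed the unadjusted threshold as lower and 137 were called lower. Their median log2 fold change in TSO rabbits was -2.79, against 0.01 for all genes. With each TSO rabbit left out in turn, the median stayed between -2.99 and -2.60 and the number past the unadjusted threshold between 226 and 251, but the number called ran from 5, without TSO Water 2 or TSO Water 3, to 196, without TSO DSS 2, with 46 without TSO DSS 1 and 34 without TSO Water 1. With the replicate number as a block, 79 were called.

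Of the 243 genes higher in Veh DSS, 202 were tested in the TSO rabbits and 160 had a positive log2 fold change, beside 51.3% of all genes tested. The median was 0.66, 49 genes passed the unadjusted threshold as higher and 6 were called. With single TSO rabbits left out, the number past the unadjusted threshold ran from 23 to 62, and the number called was 37 without TSO DSS 2, 4 without TSO DSS 3 and 0 without any 1 of the other 4. In the other direction, the 413 genes called lower in TSO DSS showed a median of -1.02 (log2 fold change) in Veh DSS, against 0.02 for all genes. Of them, 137 (33.2%) passed the unadjusted threshold as lower there, beside 3.24% of all genes tested. These are the same 137 genes as above, seen from the other side, and not a second result. Over 10118 genes tested in both, Pearson's r between the fold changes was 0.57 and Spearman's rho 0.51, with genes as points, which share the libraries. The difference of the DSS change between Veh and TSO rabbits was tested by limma with an interaction term, which called 0 of 10594 genes, with 741 below 0.05 before adjustment (6.99%). Without Veh DSS 2 the interaction called 25 genes, without TSO DSS 2 it called 19 and without Veh DSS 1 it called 2.

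**Figure D4:**
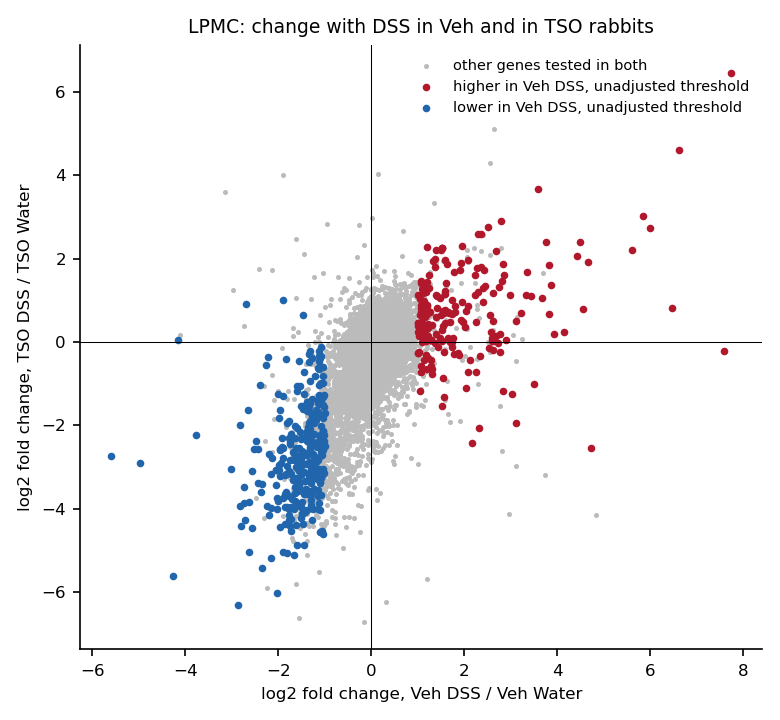
Each point is 1 of 10118 genes tested in both comparisons in LPMC, with the log2 fold change of Veh DSS over Veh Water on the horizontal axis and of TSO DSS over TSO Water on the vertical axis. Red and blue points are genes past the unadjusted threshold in the Veh rabbits; 294 of 298 blue points lie below 0 on the vertical axis and 160 of 202 red points lie above it.

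ENSOCUG00000023599 was the 1 gene of the 14 that was also called in the TSO rabbits, with 447, 770 and 95 reads in TSO DSS and 3683, 6201 and 8275 in TSO Water (log2 fold change -3.43 ± 0.44, SE, limma adjusted p = 0.0137). ENSOCUG00000006462 and ENSOCUG00000007941 had log2 fold changes of 2.90 ± 0.78 and 2.59 ± 0.73 there (SE, limma adjusted p = 0.101 and 0.116). ENSOCUG00000006698 had 840, 1067 and 717 reads in TSO DSS and 924, 511 and 1611 in TSO Water, not scaled for library size, so that these groups overlapped. On scaled reads its log2 fold change there was 0.65 ± 0.48 (SE, limma adjusted p = 0.5475). Its DSS change was larger by 1.90 on the log2 scale in Veh than in TSO rabbits, which did not pass the test of the difference (limma interaction, adjusted p = 0.609).

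Between the cell fractions, the genes lower with DSS were mostly genes with more RNA in LPMC than in IEC. In TSO Water rabbits, which did not enter the comparison, 288 of the 364 lower genes (79.1%) had an LPMC level above IEC by more than 1 on the log2 scale, against 120 of the 243 higher genes (49.4%) and 22.0% of all genes tested. In IEC of the same Veh rabbits, 10 of 11193 genes were called (0.0893%), 3 higher (0.0268%) and 7 lower (0.0625%), and at the unadjusted threshold 5.22% were higher and 1.22% lower. Of the 243 genes higher in LPMC, 223 were tested in IEC, where 210 (94.2%) had a positive log2 fold change, beside 43.7% of all genes tested in both fractions. Their median was 2.05, and 132 passed the unadjusted threshold as higher, or 92 to 160 with single rabbits left out. Of the 364 genes lower in LPMC, 289 were tested in IEC, where 185 (64.0%) had a negative log2 fold change, beside 56.3% of all genes tested in both fractions. Their median was -0.30, 29 passed the unadjusted threshold as lower and 9 as higher. With single rabbits left out, the median ran from -0.49 to -0.01, the number past the threshold from 15 to 46 as lower and from 1 to 13 as higher, and without Veh DSS 2, at the median of -0.01, 149 of the 289 were negative and 140 positive. The median of all genes in IEC was -0.05.

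A list of the 100 genes with the highest ratio of LPMC to IEC in the TSO Water rabbits, among genes with at least 100 reads in each of their LPMC libraries and higher there than in any of their IEC libraries, was used in place of named leukocyte markers. In Veh DSS, 79 of the 100 had a negative log2 fold change in LPMC, beside 47.8% of all genes tested, and the median was -0.81. Of the 100, 31 passed the unadjusted threshold as lower and 8 as higher, beside 3.24% and 2.17% of all genes tested, and 1 was called. With single rabbits left out, 23 to 39 passed as lower. In IEC, 96 of these genes were tested, 85 had a positive log2 fold change, beside 44.0% of all genes tested, and the median was 1.31. In IEC 37 were past the unadjusted threshold as higher, beside 5.22% of all genes tested, or 25 to 43 with single rabbits left out. The difference of the DSS change between LPMC and IEC was negative for 98 of the 100, beside 51.3% of all genes tested, with a median of -2.28 against -0.01 for all genes. It passed at an unadjusted p under 0.05 as negative for 47 of the 100, beside 4.37% of the 10862 genes tested, and was called by limma for 0 of them and for 2 genes in all (0.0184%), 1 of which had 0 reads in all 6 LPMC libraries. With single rabbits left out, 27 to 58 passed. These fits took the 2 fractions of a rabbit as independent, and with the rabbit as a block 56 passed.

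Summed over the list, these genes took 7.39, 6.90 and 7.74% of the LPMC reads in Veh DSS and 13.9, 6.95 and 10.9% in Veh Water (two-sided exact permutation test, p = 0.3), so that Veh Water 2 lay at the level of the DSS rabbits. Most of this sum was 1 gene, ENSOCUG00000027219 on chromosome 15, the most abundant gene in 5 of the 6 libraries, with 5.80, 5.56 and 5.62% of the reads in Veh DSS and 10.9, 5.32 and 9.50% in Veh Water (log2 fold change -0.58 ± 0.61, SE, limma adjusted p = 0.757). Without it, the other 99 genes took 1.68 ± 0.40% in Veh DSS and 1.99 ± 0.85% in Veh Water (SD, n = 3). In IEC the 100 genes took 0.236, 1.88 and 0.427% in Veh DSS and 0.241, 0.176 and 0.276% in Veh Water, where rabbit 2 was the highest and Veh DSS 1 lay among the controls. The 100 genes with the highest ratio of IEC to LPMC took 0.104, 0.0975 and 0.126% of the LPMC reads in Veh DSS and 0.0605, 0.162 and 0.138% in Veh Water (two-sided exact permutation test, p = 0.9). Of these, 70 were tested in LPMC, 0 passed the unadjusted threshold and the median log2 fold change was -0.02.

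Of the 7 genes that fell in LPMC, 6 were tested in IEC of the same rabbits and 5 were also called lower there. These were 5 of the 7 genes called lower in IEC: ENSOCUG00000025132, ENSOCUG00000027980, ENSOCUG00000022191, ENSOCUG00000021800 and ENSOCUG00000023274. The IEC calls depended on single rabbits. Of the 289 lower genes tested in IEC, 5 were called lower, 0 to 14 with single rabbits left out and 0 with the replicate number as a block. ENSOCUG00000025132 had 1.12, 1.23 and 1.33 RPM (reads scaled to an equal total per library) in IEC of Veh DSS and 37.2, 39.0 and 35.3 in IEC of Veh Water (log2 fold change -4.79 ± 0.20, SE, limma adjusted p = 0.00164). In LPMC it had 0.863, 0.444 and 0.416 RPM in Veh DSS and 20.1, 19.0 and 17.9 in Veh Water. The 2 fractions of each rabbit were thus on the same side for all 6 rabbits.

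In these 5 genes TSO DSS rabbit 3 lay apart from the other TSO DSS rabbits. ENSOCUG00000025132 had 0.604 and 0.868 RPM in LPMC of TSO DSS rabbits 1 and 2, but 32.0 in TSO DSS rabbit 3 and 18.4, 26.2 and 18.1 in TSO Water. In IEC it had 0.706 and 0.910 RPM in TSO DSS rabbits 1 and 2, 19.6 in TSO DSS rabbit 3 and 29.3, 24.3 and 25.9 in TSO Water. TSO DSS rabbit 3 thus lay above every Water rabbit in LPMC. In IEC it lay below the Water rabbits, but nearer to them than to the other DSS rabbits.

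ENSOCUG00000023274 had 74.3 and 69.0 RPM in LPMC of TSO DSS rabbits 1 and 2, 346 in rabbit 3 and 219 to 284 in TSO Water. In IEC it had 97.4 and 115 RPM in rabbits 1 and 2 and 313 to 481 in TSO Water, and rabbit 3, at 237, lay between these. In LPMC, ENSOCUG00000021800 had 0.725 and 1.23 RPM in rabbits 1 and 2, 10.3 in rabbit 3 and 5.93 to 8.79 in TSO Water. ENSOCUG00000027980 had 0.362 and 0.506 in rabbits 1 and 2 and 9.22 in rabbit 3, and ENSOCUG00000022191 had 0.725 and 0.578 in rabbits 1 and 2 and 9.50 in rabbit 3. In TSO DSS against TSO Water the 5 genes had log2 fold changes of -2.89 to -1.06, and 0 of the 5 passed even the unadjusted threshold with limma. LPMC of TSO DSS rabbit 3 was the smallest library of the study, with 3685511 reads. What separates the 5 low rabbits from the 7 others was not tested.

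**Figure D5:**
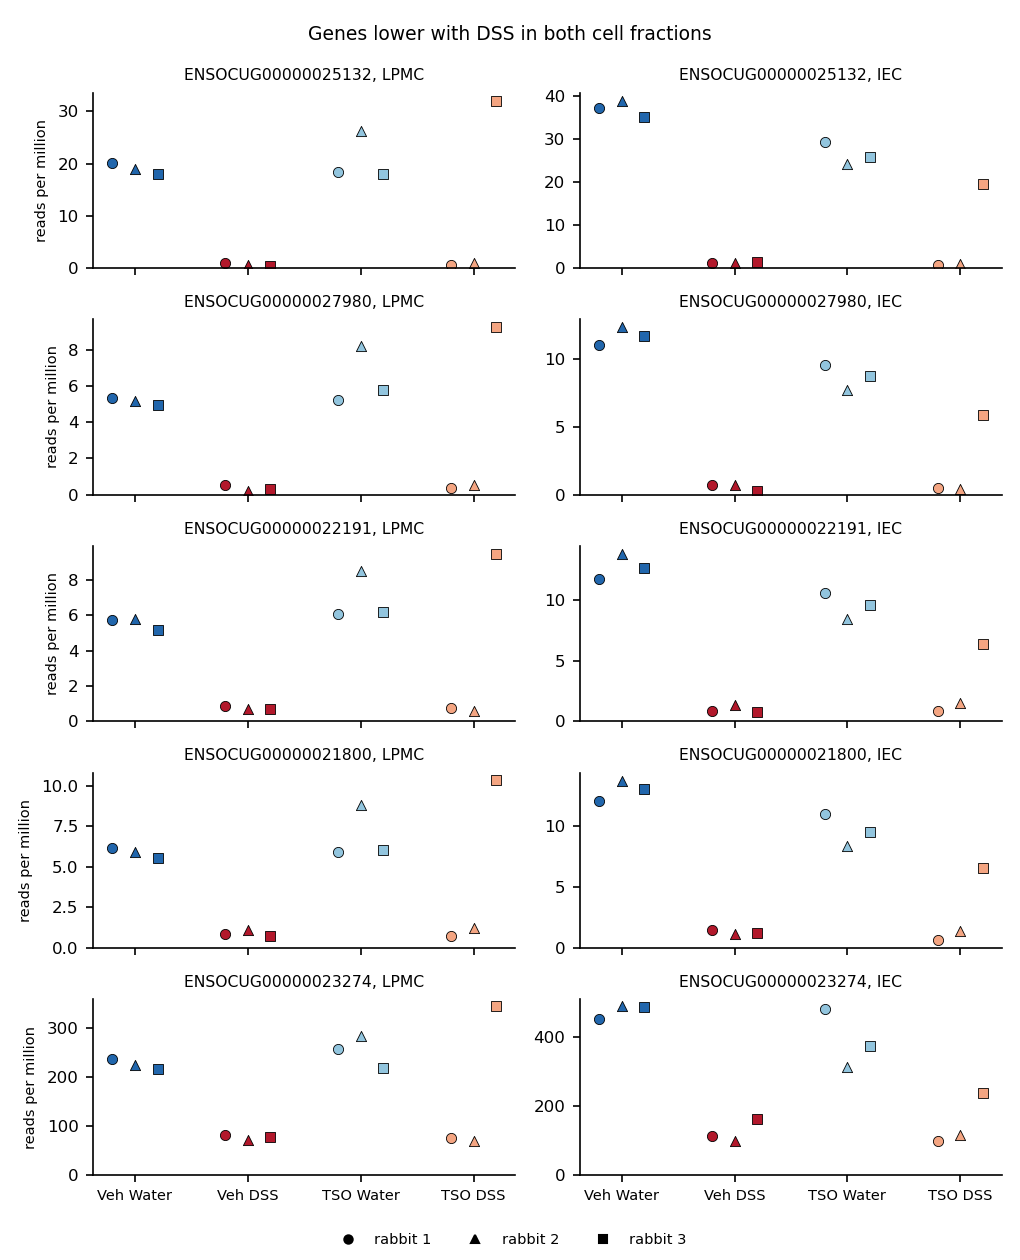
RPM of the 5 genes called lower in both LPMC (left) and IEC (right), with the 12 rabbits in their 4 groups on the horizontal axis and 1 marker shape for each rabbit number. Each vertical axis starts at 0. All Veh DSS rabbits and TSO DSS rabbits 1 and 2 lie low in both fractions, and TSO DSS rabbit 3 lies above them in both, at 346 RPM of ENSOCUG00000023274 in LPMC and 237 in IEC.

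The 7 higher genes were not called in IEC. ENSOCUG00000006462 had a log2 fold change of 3.12 ± 0.69 in IEC, ENSOCUG00000007941 of 2.76 ± 0.70 and ENSOCUG00000009034 of 2.05 ± 0.48 (SE, limma adjusted p = 0.487, 0.49 and 0.487). All 3 passed the unadjusted threshold there, as did ENSOCUG00000013916. The test of the difference between the DSS changes in LPMC and IEC gave limma adjusted p-values from 0.903 to 0.959 for these 4 genes, so that a difference between the fractions was not shown.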

How the data were processed

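RNA of LPMC and IEC from 12 rabbits was measured by RNAseq of polyA RNA without strand, which the labels describe as single-end reads and the methods of the study as paired inserts; reads of overlapping or antisense genes cannot be told apart. The submitters' processing notes name FastQC and the build OryCun2.0; the aligner and the counting program are not given in the sources used here. The values the authors deposited are normalized signals, read counts multiplied by 1 factor per library and table and rounded, beside fold changes and p-values of their own that were not used. Dividing by the smallest step between low values gave back reads, and of the values below 1000, 100% came within 0.1 of whole reads.

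The main test was limma 3.58.1 (trend, R 4.3.3) on log2(value + 1) over the 11218 of 17318 genes that the authors marked as present, with the 6 libraries only and no block. The IEC comparison was fitted alike, over the genes marked as present there. The TSO comparison was fitted by limma on log2 of recovered reads scaled by TMM plus 1. It covered genes with at least 10 reads in at least 3 libraries. Differences between comparisons were fitted as interactions, also on recovered reads scaled by TMM. Alternatives were a pseudocount of 0.1, no filter, 10 reads in 3 libraries, other scalings, all 12 LPMC libraries, the replicate block, room, each replicate left out, thinned reads, edgeR 4.0.16 and DESeq2 1.42.0; fits without genes whose reads come in steps, the block and left-out rabbits in the difference between Veh and TSO, and left-out rabbits (and blocks) for gene lists were chosen after seeing the data. P-values measure the spread between 3 rabbits a group. The 6 libraries held 9275645 to 15770415 reads.

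Genes named were all called genes and, of those past the unadjusted threshold with separated groups and at least 20 reads in each library of the higher group, the 5 largest and 5 most abundant in each direction. Planned symbol lists and cell type markers could not be matched. The comparison, the lists and the tests were chosen with earlier results of these data known. The tests were checked on simulated counts. Same-numbered Veh DSS and Veh Water rabbits are different animals; IEC and LPMC of 1 rabbit are pairs by the sample metadata. Python 3.11.15 was used.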

Additional observations from a re-analysis of the deposited data

Results flagged for a closer look

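The interaction of cell type and DSS in limma passed the adjusted threshold for 2 genes, each with groups at 0 reads, so that the fitted differences depend on the prior count and are no bounds. ENSOCUG00000019175 on chromosome 9 differed by 6.96 ± 0.76 (log2, SE, limma adjusted p = 0.0124), with 84, 42 and 82 reads in LPMC of Veh DSS and 0 in the 3 Veh Water libraries, beside 22, 39 and 39 reads in IEC of Veh DSS and 44, 80 and 39 in IEC of Veh Water. ENSOCUG00000029100, a mitochondrial gene, had a fitted difference of 8.61 ± 0.76 (log2, SE, limma adjusted p = 0.00323) with 0 reads in all 6 LPMC libraries and with 860, 261 and 514 reads in IEC of Veh Water against 0 in IEC of Veh DSS. With no read in LPMC it showed no DSS change there to compare, and the value is not read as a difference between the fractions. It was at 0 in 17 of the 24 libraries, at 247 to 293 reads in 4, at 514 to 575 in 2 and at 860 in 1, so that its reads also came in steps. With the rabbit as a block, both adjusted p-values were 0.19, and the cause of the steps was not tested.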

How the results depend on the processing

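The adjusted calls in LPMC changed with most settings and the unadjusted counts with few. Genes called higher and lower (7 and 7) numbered 243 and 364 with the unadjusted p, 3 and 4 with a pseudocount of 0.1, 0 and 1 without a filter, 3 and 4 with the filter of 10 reads in 3 libraries, 4 and 3 with library size scaling, 4 and 9 with room as a covariate, 0 and 2 with thinned reads, 1 and 2 with edgeR quasi-likelihood, 150 and 106 with edgeR likelihood ratio, 134 and 100 with DESeq2 and 0 and 0 with all 12 LPMC libraries in the fit. TMM scaling gave 8 and 7. With single replicates left out, they ran from 0 to 29 and from 0 to 10. With the replicate number as a block, 0 and 0 were called, with 237 and 339 at the unadjusted p. Same-numbered libraries deviated together by r = 0.0097, 0.0831 and -0.0953 across genes, so that no pairing by number was seen over all genes. A batch shared by some genes was not tested, and ENSOCUG00000029096 was at 0 in replicate 2 of both groups. The unadjusted counts of 243 and 364 ran from 161 to 347 and from 194 to 513 with single replicates left out and moved by less than 1.5 times in all other settings. In IEC, calls (3 and 7) numbered 584 and 137 with the unadjusted p, 0 and 0 with the block, and 0 to 246 and 0 to 56 with single replicates left out. In LPMC of TSO DSS against TSO Water (19 and 413), they numbered 152 and 1038 with the unadjusted p, 13 and 266 with the block, and 0 to 166 and 22 to 951 with single replicates left out. The difference between LPMC and IEC (2 positive, 0 negative) gave 0 with the rabbit as a block and 0 to 3 positive and 0 to 2 negative with single rabbits left out; that between Veh and TSO gave 0 to 25 positive. The summed level of 200 IEC-enriched genes was higher in Veh DSS by 0.106% of reads (exact permutation p = 0.2), where that of 100 was -0.0108%. None of the 29 named genes changed direction in any fit. This was largely fixed beforehand, as the 2 groups were fully separated for each of them. The 14 called genes lost their call in 163 of 263 pairs of a gene and another fit. Why the calls move was not tested.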

Other observations

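The mitochondrial genes of LPMC had a negative log2 fold change with DSS in 19 of the 21 tested, beside 47.8% of all genes, with a median of -0.18 against 0.02 for all genes. The 21 genes share the libraries and are not separate observations, and their summed share of reads overlapped between the groups (two-sided exact permutation test, p = 0.8). Of them, 1 gene, ENSOCUG00000029089, passed the unadjusted threshold, with 0 reads in Veh DSS and 0, 291 and 284 in Veh Water. ENSOCUG00000029096, a mitochondrial gene that took 5.80, 0 and 5.07% of the reads in Veh DSS and 4.30, 0 and 8.37% in Veh Water, was at 0 in 13 of the 24 libraries, so that the mitochondrial shares contain it in some libraries only. Replicate 2 lacked it in both groups.

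Of the genes just past the limit of the adjusted call, ENSOCUG00000009424 on chromosome 9 had a log2 fold change of -2.87 ± 0.33 (SE, limma adjusted p = 0.0504) and ENSOCUG00000015956 on chromosome 8 of 1.30 ± 0.15 (SE, limma adjusted p = 0.0504). Both were chosen for their place in the order of p-values after the values were seen.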
